A study of Mus musculus with 3 samples.

Results

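Cluster 8 (C8) of the CD4+ T cells, which carries the name Fcer1g-high, was described in the spleens of mice 7 days after allogeneic bone marrow transplantation (BMT). Its members were all cells that the authors' table of CD4+ T cells assigned to cluster 8 and did not mark as TEa. They numbered 472 of 10091 CD4+ T cells without TEa cells, or of 21204 cells with the CD8+ T cells and TEa cells counted. A further 17 of the 280 TEa cells lay in C8 and were left out.

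All recipients were B6D2F1 mice given bone marrow and T cells from B6 donors, together with 1000 TEa cells. TEa cells carry 1 transgenic T cell receptor (TCR) for a peptide of a recipient MHC class II molecule, on a CD45.1+ Rag1-/- background. The groups were saline, cyclosporin (CSA) 5 mg/kg and CSA 50 mg/kg, given daily from day 0 to day 6. CSA inhibits calcineurin, the phosphatase that carries the TCR signal to NFAT. Each group had 6 mice, whose spleens were joined by 2 into 3 pools with a hashtag antibody each. CD4+ and CD8+ T cells were sorted by flow cytometry with antibodies to CD4, CD8 and CD90.2, combined in equal parts and captured in 1 droplet run per group, so that the capture and the treatment cannot be told apart. Ages of the mice are not given in the labels.

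Fcer1g encodes the common γ chain of Fc receptors, a small membrane protein with an activation motif that also sits with TYROBP (DAP12) under many receptors of macrophages, mast cells and natural killer cells. Resting CD4+ T cells use CD3 chains in that place. In the spleen, red pulp macrophages clear aged red cells and antibody-coated particles, recycle iron through heme oxygenase (Hmox1) and ferroportin (Slc40a1), and make the complement protein C1q.

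C8 held 46, 50 and 82 cells in the saline pools, 30, 68 and 55 cells in the CSA 5 mg/kg pools and 18, 70 and 53 cells in the CSA 50 mg/kg pools. The summed counts of C8 ranged from 116280 to 402152 unique molecular identifiers (UMIs) per pool. The median number of UMIs per C8 cell was between 2807.5 and 6712.5 in the pools, against 2963 to 6311 in the other CD4+ T cells. Depth per cell was thus higher with CSA in both, and expression was compared as counts summed per pool. Of 20986 cell barcodes, 218 occurred in more than 1 capture, 10 of them in C8. Each of the 472 C8 cells held a Cd4 UMI and none a Cd8a UMI, which was also so of the 9619 other CD4+ T cells. Since this held for every cell of the CD4+ table, it says nothing of C8, and the rule that made the table was not tested. Cd8b1 UMIs were found in 32.8% of C8 cells and 30.8% of the others.

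TCR libraries tied C8 cells to other CD4+ T cells of the same pool. A clonotype was found in 333 C8 cells, and in 54 of them (16.2%) the same clonotype occurred in another CD4+ cluster of the pool. These cells shared clonotypes with C0 (18 cells), C3 (15), C6 (12), C5 (10), C1 (8), C2 (6), C4 (5), C7 (5) and C10 (2), where a cell can share with several clusters. In 2 cells the clonotype was shared with another C8 cell, and in 1 (0.300%) with a CD8+ T cell, against 6 of 7651 clonotype cells (0.0784%) among the other CD4+ T cells. The CDR3 bases of 5 shared clonotypes with both chains are printed, because they show that a C8 cell and CD4+ T cells of other clusters were recorded with 1 receptor. They run 5′ to 3′, and the capitals mark the first and last codon, which encode the conserved cysteine and phenylalanine.
clonotype 1 alpha: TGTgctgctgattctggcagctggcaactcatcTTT
clonotype 1 beta: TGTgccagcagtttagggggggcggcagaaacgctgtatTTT
clonotype 2 alpha: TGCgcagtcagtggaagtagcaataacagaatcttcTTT
clonotype 2 beta: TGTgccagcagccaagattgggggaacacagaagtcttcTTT
clonotype 3 alpha: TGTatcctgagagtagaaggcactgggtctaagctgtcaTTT
clonotype 3 beta: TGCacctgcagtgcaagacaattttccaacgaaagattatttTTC
clonotype 4 alpha: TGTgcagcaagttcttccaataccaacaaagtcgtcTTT
clonotype 4 beta: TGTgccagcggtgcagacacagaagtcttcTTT
clonotype 5 alpha: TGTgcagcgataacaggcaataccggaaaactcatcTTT
clonotype 5 beta: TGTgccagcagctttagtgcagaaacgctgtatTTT

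Clonotype 1 was carried by 26 cells of saline pool 1, of which 1 lay in C8 and 25 in C0, C1, C3, C5 and C6. Clonotype 2 had 13 cells in saline pool 2, with 12 outside C8 in C0, C2, C3, C5 and C6. Clonotype 3 had 6 cells and clonotype 5 had 4 cells, both in CSA 5 mg/kg pool 3, and clonotype 4 had 5 cells in saline pool 3. Each of the 5 clonotypes had a single cell in C8, and each was also found in C0. Each was found as well in at least 1 of C3, C5 and C6, clusters with high levels of cell cycle genes. How often other shared clonotypes reach these clusters was not tested.

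The C8 label was first checked against its marker. Fcer1g was at 525 ± 139 CPM (UMIs of the gene scaled to a common pool total; SD, n = 9 pools) in C8, and the next of the 13 CD4+ clusters were C12 with 58.3 ± 13.6 CPM (n = 3 pools) and C11 with 41.1 ± 87.5 CPM (n = 5). C12 and C11 differed by less than the SD of C11, while no pool of the other CD4+ T cells together came above 35.5 CPM. The lowest C8 pool had 359 CPM and the highest 793 CPM. Fcer1g is therefore a marker of C8 in these data, but it did not lead the list of differences. The 12 genes with the highest log2 difference, among those of at least 50 CPM, were Marco, Slc40a1, Sirpa, Fcna, Fcgr4, C1qb, Siglece, Apoe, C1qa, Vcam1, Cd5l and Pla2g7, most of them known as macrophage genes. The clusters were made from these counts, so the comparison of C8 with the other CD4+ T cells is a description and carries no p-value.

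Of 9141 genes described, 160 (1.75%) were at least 2-fold higher and 173 (1.89%) at least 2-fold lower in C8 in all 9 pools. In the macrophage and monocyte list, 18 of 19 described genes were at least 2-fold higher in all pools, and the list's median log2 difference was 5.35, against 0.01 over all genes tested for dose. C1qa, C1qb and C1qc, which encode the 3 chains of C1q and lie next to each other on chromosome 4, were at 530 ± 83.0, 591 ± 130 and 451 ± 80.0 CPM in C8, against 11.4, 11.7 and 10.3 CPM in the other cells. Iron handling genes were high, with Hmox1 at 427 ± 133 against 20.1 CPM and Slc40a1 at 205 ± 99.2 against 3.43 CPM. Spic, the transcription factor of red pulp macrophages, was at 109 ± 28.1 against 3.39 CPM, and Vcam1, an adhesion molecule of these cells, at 214 ± 60.8 against 4.63 CPM.

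Receptors that use FCER1G were high as well. Fcgr4 and Fcgr3, activating receptors for IgG, were at 145 ± 28.0 and 70.2 ± 38.4 CPM in C8 and at 2.62 and 2.85 CPM in the other cells. The adaptor Tyrobp was at 287 ± 60.5 against 10.0 CPM and the kinase Lyn, which acts below Fc receptors, at 48.7 ± 18.5 against 3.57 CPM. In the list of FcRγ and DAP12 complexes, 8 of 12 described genes were at least 2-fold higher in all 9 pools, and the FcεRI chains Fcer1a and Ms4a2 of mast cells had no UMI in C8. Hcst (DAP10), an adaptor that T cells also use, differed little, with 474 ± 152 and 413 ± 128 CPM.

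The phagocyte and class II lists had smaller median log2 differences, at 1.78 and 3.67. The macrophage list had 5.35 and the FcRγ and DAP12 list 4.51. In the phagocyte lysosome and iron list 14 of 20 genes were at least 2-fold higher in every pool, among them the ferritin chains Ftl1 (2191 ± 273 against 560 ± 40.6 CPM) and Fth1 (3261 ± 503 against 1107 ± 191 CPM). In the MHC class II list it was 6 of 8. The invariant chain Cd74 was at 583 ± 354 against 81.1 ± 20.0 CPM and H2-Aa, the class II α chain, at 164 ± 113 against 5.39 ± 2.78 CPM. Both varied widely among the C8 pools, and the pools with low values were those of CSA 50 mg/kg.

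Genes that T cells are known by were at like levels in C8 and in the other CD4+ T cells. None of the 19 genes of the T cell identity list was 2-fold higher or lower in all pools, and the median log2 difference was -0.09. Cd3e had 958 ± 85.4 CPM in C8 and 1028 CPM in the other cells, Cd3d had 1145 ± 137 and 1165 ± 128 CPM, Trac had 292 ± 49.4 and 305 ± 35.7 CPM, and Cd4 had 547 ± 196 and 511 ± 190 CPM. The ranges over pools overlapped for each of these genes. Every cell of the CD4+ table held a Cd4 UMI, so the level of Cd4 is not an independent measure of likeness.

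**Figure D1:**
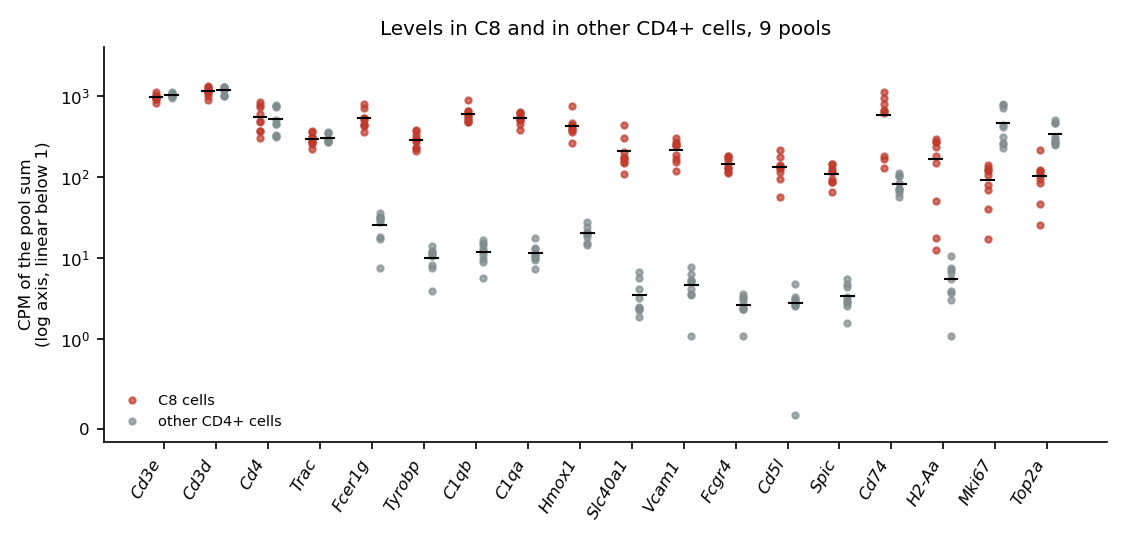
Levels of 18 genes in C8 cells (red) and in the other CD4+ T cells (gray). Each point is the summed counts of 1 of 9 pools in CPM without TMM scaling, the bar is their mean, and the y axis is logarithmic above 1 CPM and linear below. The T cell genes on the left overlap, the macrophage genes from Fcer1g to Spic are separated in every pool, and Mki67 and Top2a are lower in C8.

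Genes of cell division were lower. In the cell cycle list 15 of 18 genes were at least 2-fold lower in C8 in all 9 pools, and the list's median log2 difference was -1.37. Mki67, a marker of cycling cells, was at 90.7 ± 42.2 CPM against 464 CPM, and Cenpf, a kinetochore gene, at 22.6 ± 17.2 against 113 ± 34.6 CPM. Knl1, Aspm, Kif20b, Tpx2 and Ckap2l, which act at the spindle or kinetochore, were also among the 8 lowest, as was Ccl1, a chemokine of activated T cells, which was lower in C8 in 9 of 9 pools. Ccl1 varied with the pool, at 7.17, 130 and 12.4 CPM with saline, 43.0, 53.0 and 42.5 CPM with CSA 5 mg/kg and 0 CPM in each CSA 50 mg/kg pool, and it ranged from 0.138 to 458 CPM in the other cells. The other CD4+ T cells hold the cycling clusters C3, C5 and C6. Among the 13 clusters taken singly, C8 had the fourth highest level of the cell cycle list, at 2781 ± 439 CPM, with C6, C3 and C5 between 11150 and 13738 CPM.

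Markers of other blood cells were followed as whole lists and by their defining genes. Of the 26 genes of the macrophage list 24 had a UMI in C8, Vsig4 and Ace had none, and Lyz2, abundant in most monocytes, had 10.8 ± 11.9 CPM. Ly6g of neutrophils, Ncr1 of natural killer cells, Trem2 of lipid-associated macrophages, Clec9a and Flt3 of dendritic cells and Ms4a1 and Pax5 of B cells had no UMI. Other members of these lists were found. The neutrophil list, with a UMI in 8 of 13 genes, took 0.0136% of the UMIs of C8 and 0.0110% of those of the other cells. The B cell and plasma cell list, with a UMI in 11 of 13 genes, took 0.0416% and 0.0254% and was higher in C8 in 5 of 9 pools. It took 0.0243% against 0.0223% with saline, 0.0776% against 0.0219% with CSA 5 mg/kg and 0.0229% against 0.0319% with CSA 50 mg/kg. The dendritic cell list took 0.0388% and 0.0201%. The list of natural killer and innate lymphoid cells, of which 12 of 17 genes had a UMI in C8, took 0.0544% against 0.0297%. It was higher in C8 in 9 of 9 pools, as was the dendritic cell list with 8 of 13 genes. The natural killer list also holds Tyrobp, which was high in C8 as given above, and its sum without Tyrobp was not taken. Of its 9 described genes, 1 was at least 2-fold higher and 1 at least 2-fold lower in C8 in all 9 pools. The erythroid list was higher in 8 of 9 pools, at 0.00445% against 0.00184%, and the platelet list in 3, at 0.00150% against 0.000141%. The part of such cells in the values of C8 was not tested. In CSA 5 mg/kg pool 2, a single C8 cell held 3171 of the 3640 immunoglobulin UMIs of C8. The macrophage list took 0.365% of the UMIs of C8 (0.299% to 0.433% in the pools) and 0.0267% of those of the other cells (0.0205% to 0.0345%).

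Both sets of transcripts were found in the same single cells. Of 472 C8 cells, 447 (94.7%) held a UMI of C1qa, C1qb or C1qc, 468 (99.2%) a UMI of Cd3d, Cd3e or Cd3g, and 444 (94.1%) both. The median C8 cell had 11 UMIs of the macrophage list (range 0 to 89) and 32 UMIs of the T cell identity list. As a share of the UMIs of a cell, the macrophage list took 0.137% at the 10th percentile, 0.328% at the median and 0.759% at the 90th percentile of C8 cells, against 0%, 0.00993% and 0.0817% in the others. A share over 1% was reached by 19 C8 cells and by 0 of 9619 others, and none of the C8 cells reached 5%. A clonotype was found in 71.8% of the C8 cells with a C1q UMI and in 48% of the 25 cells without.

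**Figure D2:**
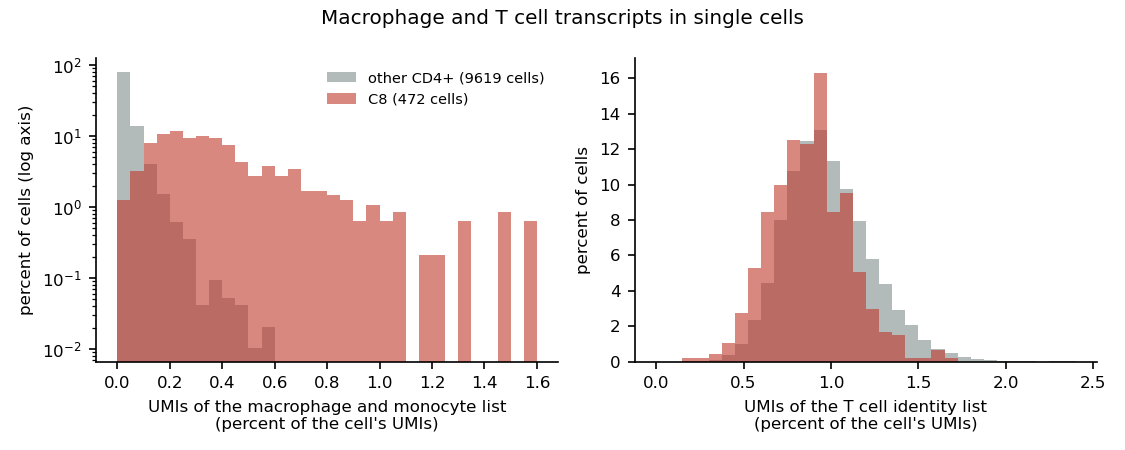
Share of the UMIs of each cell that fell on the macrophage and monocyte list (left, log y axis) and on the T cell identity list (right), in percent, for 472 C8 cells (red) and 9619 other CD4+ T cells (gray); the y axis is the percent of cells and the last bar also holds cells beyond the axis. The C8 cells are shifted to higher macrophage shares (median 0.328% against 0.00993%) and overlap with the others in T cell identity (0.879% against 0.959%).

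Depth was made equal by thinning each cell to 1000 UMIs, which left out 2 C8 cells and 17 others. An Fcer1g UMI was then held by 39.6% of C8 cells (exact 95% Clopper-Pearson interval 35.1% to 44.2%; 74.0% before thinning) and by 2.47% of the other CD4+ T cells (2.17% to 2.80%; 7.93% before thinning). In C9, a CD4+ cluster of low depth, it was 2.27% (0.916% to 4.61%). Median depths before thinning were 3619 UMIs in C8, 4201.5 in the other cells and 2729 in C9. C1q UMIs were held by 72.6% of thinned C8 cells and 2.45% of the others, Cd3 UMIs by 95.1% and 94.4%, and Mki67 UMIs by 9.15% and 18.9%. The share in the other CD4+ T cells lay within the interval of C9, and free RNA in the droplets was not measured. The intervals cover counting error only.

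Antibody tags, which were not used to make the clusters, were compared between C8 and the other CD4+ T cells of the same pool by an exact two-sided sign-flip test over 9 pools, whose smallest p is 0.00391, adjusted over 8 measures. The tests of single tags were added after the data were seen. The CD45.1 tag, which marks the congenic TEa cells, had pool medians of 20, 23 and 22.5 UMIs per C8 cell with saline, 35, 28 and 26 with CSA 5 mg/kg and 10.5, 9 and 11 with CSA 50 mg/kg. In the other CD4+ T cells these medians lay between 1 and 7, below C8 in 9 of 9 pools (exact p = 0.00391, adjusted p = 0.0104). The CD8 tag was higher in C8 in 9 of 9 pools too, at 8.06 ± 2.07 against 5.67 ± 1.22 UMIs (exact p = 0.00391, adjusted p = 0.0104). The CD4 tag was at 395 ± 69.4 and 407 ± 81.7 UMIs (exact p = 0.0898).

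Hashtags were also higher. The strongest hashtag, that of the cell's own pool, had a median of 652 ± 281 UMIs in C8 and 462 ± 202 in the others and was higher in 9 of 9 pools (exact p = 0.00391, adjusted p = 0.0104). The second hashtag, which belongs to another pool, had 16.3 ± 12.1 and 8.89 ± 1.90 UMIs and was higher in 8 pools and equal in 1 (exact p = 0.00781, adjusted p = 0.0156). A second hashtag that reached 0.5 of the strongest one was found in 8.25% ± 7.62 of C8 cells and 3.80% ± 3.58 of the others, higher in 6 pools and lower in 1 (exact p = 0.0313, adjusted p = 0.0417). With any 1 of 6 pools left out, this last p was 0.0625. The tags of C8 were thus higher for antibodies to a marker of TEa cells, to the other lineage and to other pools, while the CD4 tag was not, and the part of antibody binding, of Fc receptors or of droplets with 2 cells in these values was not tested.

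**Figure D3:**
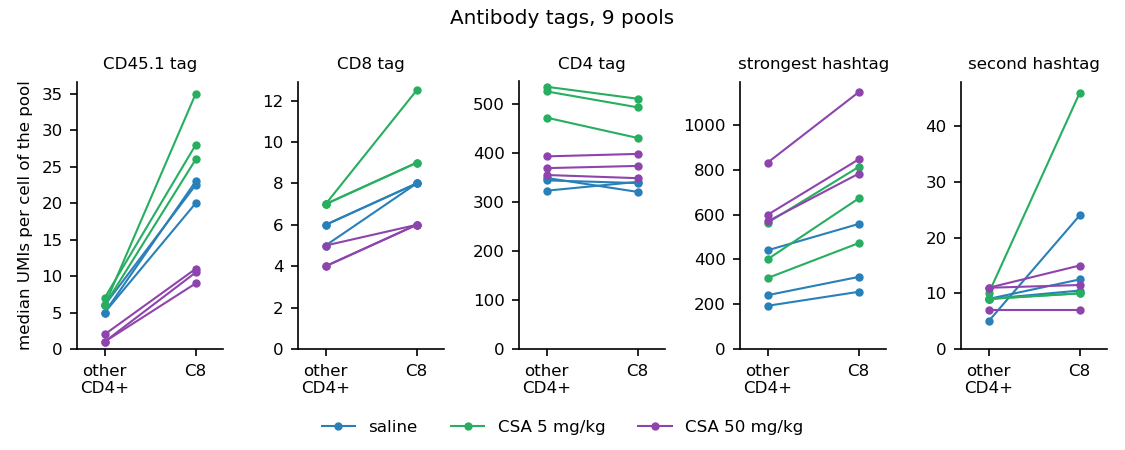
Median antibody UMIs per cell for the CD45.1, CD8 and CD4 tags and for the strongest and second hashtag. Each line joins the other CD4+ T cells and the C8 cells of 1 pool, and the colors mark saline, CSA 5 mg/kg and CSA 50 mg/kg. The lines rise to C8 in 9 of 9 pools for CD45.1, CD8 and the strongest hashtag, in 8 of 9 for the second hashtag, and in 3 of 9 for CD4.

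A clonotype was recovered in 71.2% ± 8.83 of C8 cells and 79.9% ± 5.91 of the other CD4+ T cells, lower in C8 in 8 of 9 pools (exact p = 0.0156, adjusted p = 0.025). Of the clonotype cells, 18.1% ± 6.55 in C8 and 21.5% ± 4.29 in the others shared their clonotype with another CD4+ T cell of the pool (exact p = 0.0859, adjusted p = 0.0898). The second difference was -3.34 points, and without CSA 50 mg/kg pool 1, which had 15 C8 clonotype cells, it was -4.43 points with an exact p of 0.0313 over the 8 remaining pools.

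The CD8+ cluster with the highest Fcer1g share of UMIs (532 cells, number 5 in the deposited table) was set beside C8 with no test. Since it was chosen by Fcer1g, its likeness to C8 is in part set by the choice. For its own CD8+ C5 the paper gives follicular helper-like and precursor-like cells, and how the numbers correspond was not tested. Of the 79 genes that were at least 2-fold higher in C8 in all pools with at least 50 CPM, 77 were higher in this CD8+ cluster than in the other CD8+ T cells in 9 of 9 pools, and 72 by at least 2-fold. Their median level was 109 CPM in C8 and 88.6 CPM in the CD8+ cluster. Of the 79 genes, 37 were in any of the lists used here, 16 of them in the macrophage list.

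The share of C8 among CD4+ T cells was 4.05%, 3.38% and 5.68% in the saline pools, 3.43%, 7.29% and 4.74% with CSA 5 mg/kg and 1.82%, 6.93% and 4.97% with CSA 50 mg/kg. The lowest and the second highest share both lay in the CSA 50 mg/kg group, and all 3 groups overlapped. Means were 4.37% ± 1.18, 5.15% ± 1.96 and 4.57% ± 2.58 (SD, n = 3). The exact Jonckheere-Terpstra test for a trend over the 3 doses (two-sided) gave p = 0.831 (adjusted p = 0.900 over 13 clusters).

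Expression within C8 changed with dose. Of 4064 genes tested with edgeR's quasi-likelihood test at an adjusted p under 0.05, 321 (7.90%) differed between CSA 5 mg/kg and saline, with 221 (5.44%) higher and 100 (2.46%) lower. Between CSA 50 mg/kg and saline 1385 (34.1%) differed, with 650 (16.0%) higher and 735 (18.1%) lower, and between the 2 doses 414 (10.2%) differed, with 172 (4.23%) higher and 242 (5.95%) lower. At an unadjusted p under 0.05 these shares were 20.2%, 43.1% and 23.3%. Both doses share the saline pools. Without saline pool 3 the first count was 203, and without CSA 5 mg/kg pool 3 the last was 272. Scaling by library size in place of TMM moved the median log2 change of all genes to -0.24 for the low and -0.28 for the high dose. The low dose then had 117 rises and 342 falls, and the high dose 284 rises and 1170 falls, so that directions hold relative to the typical gene. In C8 as a sum, fewer cells with a transcript and less of it per cell cannot be told apart. Shares of thinned cells with a UMI are therefore given below by dose for Fcer1g and Hmox1. Levels by dose are TMM-normalized CPM from here on.

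All 6 tested genes of the MHC class II list fell at CSA 50 mg/kg, with a median log2 change of -2.19 against 0.00 over all genes, and under library size scaling it was also 6 of 6 (DESeq2 5 of 6). Cd74 was at 622, 945 and 790 CPM with saline, 757, 1274 and 772 CPM with CSA 5 mg/kg and 148, 215 and 196 CPM with CSA 50 mg/kg. Every 50 mg/kg pool lay below every other pool, and the log2 change from saline was -2.01 ± 0.18 (SE, adjusted p = 1.75e-12 in edgeR). H2-Aa had 183, 272 and 237 CPM with saline and 59.3, 20.6 and 14.8 CPM with CSA 50 mg/kg, a log2 change of -3.24. H2-Ab1 and H2-Eb1, class II β chains, changed by -2.61 and -2.37. At CSA 5 mg/kg none of the 6 passed the test, and their median log2 change was 0.03.

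The chemokines Ccl24 and Ccl6 fell at the high dose. Ccl24, an eosinophil attractant, had 351, 568 and 391 CPM with saline, 548, 602 and 478 CPM with CSA 5 mg/kg and 9.88, 2.94 and 3.70 CPM with CSA 50 mg/kg. It fell by 6.49 ± 0.38 on the log2 scale (adjusted p = 1.46e-19 in edgeR). Ccl6 fell by 3.61 on the log2 scale, with 9.88, 11.8 and 3.70 CPM left. Ccl6 lay outside the naming rule and was chosen after its values were seen.

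The macrophage list as a whole did not follow. Of its 19 tested genes 6 rose and none fell at CSA 50 mg/kg (median log2 change 0.42), where 16.0% of all genes rose. But under library size scaling 2 rose and 3 fell (median 0.13), where 284 and 1170 of all 4064 genes did. DESeq2 called 3 rises. Its share of the UMIs of C8 was 0.343% ± 0.0382, 0.363% ± 0.0271 and 0.388% ± 0.0686 in the order of dose (exact trend p = 0.388). C1qa was at 461, 605 and 628 CPM with saline and 662, 594 and 448 CPM with CSA 50 mg/kg, with a log2 change of -0.05 ± 0.15 (adjusted p = 0.814 in edgeR). C1qb had a log2 change of 0.42 ± 0.15 (adjusted p = 0.026), which was lost under DESeq2 (0.080) and library size scaling (0.54), and without saline pool 1 (0.077), saline pool 3 (0.099) or CSA 50 mg/kg pool 1 (0.10).

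Hmox1 and Slc40a1 rose at CSA 50 mg/kg, while the list of phagocyte lysosome and iron handling genes went both ways. Of its 20 tested genes 6 rose and 4 fell, where 16.0% and 18.1% of all genes rose and fell. Under library size scaling 4 rose and 6 fell, where 284 and 1170 of all 4064 genes did. Hmox1 was at 263, 377 and 428 CPM with saline, 408, 454 and 451 CPM with CSA 5 mg/kg and 514, 879 and 555 CPM with CSA 50 mg/kg, which gave 0.89 ± 0.17 on the log2 scale (adjusted p = 3.89e-05 in edgeR). Slc40a1 was at 110, 167 and 175 CPM with saline and 504, 353 and 241 CPM with CSA 50 mg/kg, a log2 change of 1.13. The pools of the 2 groups did not overlap for either gene, as was so for 43.0% of all genes tested. Among thinned C8 cells, a Hmox1 UMI was held by 28.7% with saline, 31.6% with CSA 5 mg/kg and 33.6% with CSA 50 mg/kg. The exact intervals overlapped (22.1% to 35.9%, 24.3% to 39.6% and 25.8% to 42.0%), and a change of this share was not tested. Spic had a log2 change of 0.77, a call lost under DESeq2 (adjusted p = 0.10) and library size scaling (0.13) and without saline pool 1 (0.056). The ferritin chains Ftl1 and Fth1 rose by 0.56 and 0.60. Apoe, which carries lipid, changed by -0.96, and without saline pool 2 this call was lost (-0.70, adjusted p = 0.061). Pla2g7, a secreted phospholipase, changed by -1.48, which was lost without saline pool 3 (-1.17, adjusted p = 0.087). Within the UMIs of the macrophage list, Slc40a1 took 4.49% with saline and 8.24% with CSA 50 mg/kg, Hmox1 took 10.6% and 15.1%, and Vcam1 took 7.56% and 4.11%.

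Fcer1g itself was at 366, 531 and 424 CPM with saline, 608, 585 and 516 CPM with CSA 5 mg/kg and 928, 826 and 522 CPM with CSA 50 mg/kg. One pool of the high dose lay within the saline range. Against saline the high dose gave 0.73 ± 0.16 on the log2 scale (adjusted p = 0.000328 in edgeR) and the low dose 0.36 ± 0.17 (adjusted p = 0.224). The share of thinned C8 cells with an Fcer1g UMI was 38.2% with saline, 41.4% with CSA 5 mg/kg and 39.3% with CSA 50 mg/kg. The exact intervals overlapped (31.0% to 45.8%, 33.5% to 49.7% and 31.1% to 47.9%), and a change of this share was not tested. Tyrobp differed by 0.13 between the high dose and saline (log2, adjusted p = 0.62). In the FcRγ and DAP12 list, 3 of 9 tested genes rose at 50 mg/kg, Fcer1g, Hcst (1.18) and Lyn (1.20), and 2 fell, Fcgr3 (-1.15) and the inhibitory receptor Lilr4b (-2.54), against 16.0% and 18.1% of all genes. The calls of Lyn and Fcgr3 were lost under DESeq2 (adjusted p = 0.14 and 0.074) and without saline pool 3 (0.092 and 0.091).

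**Figure D4:**
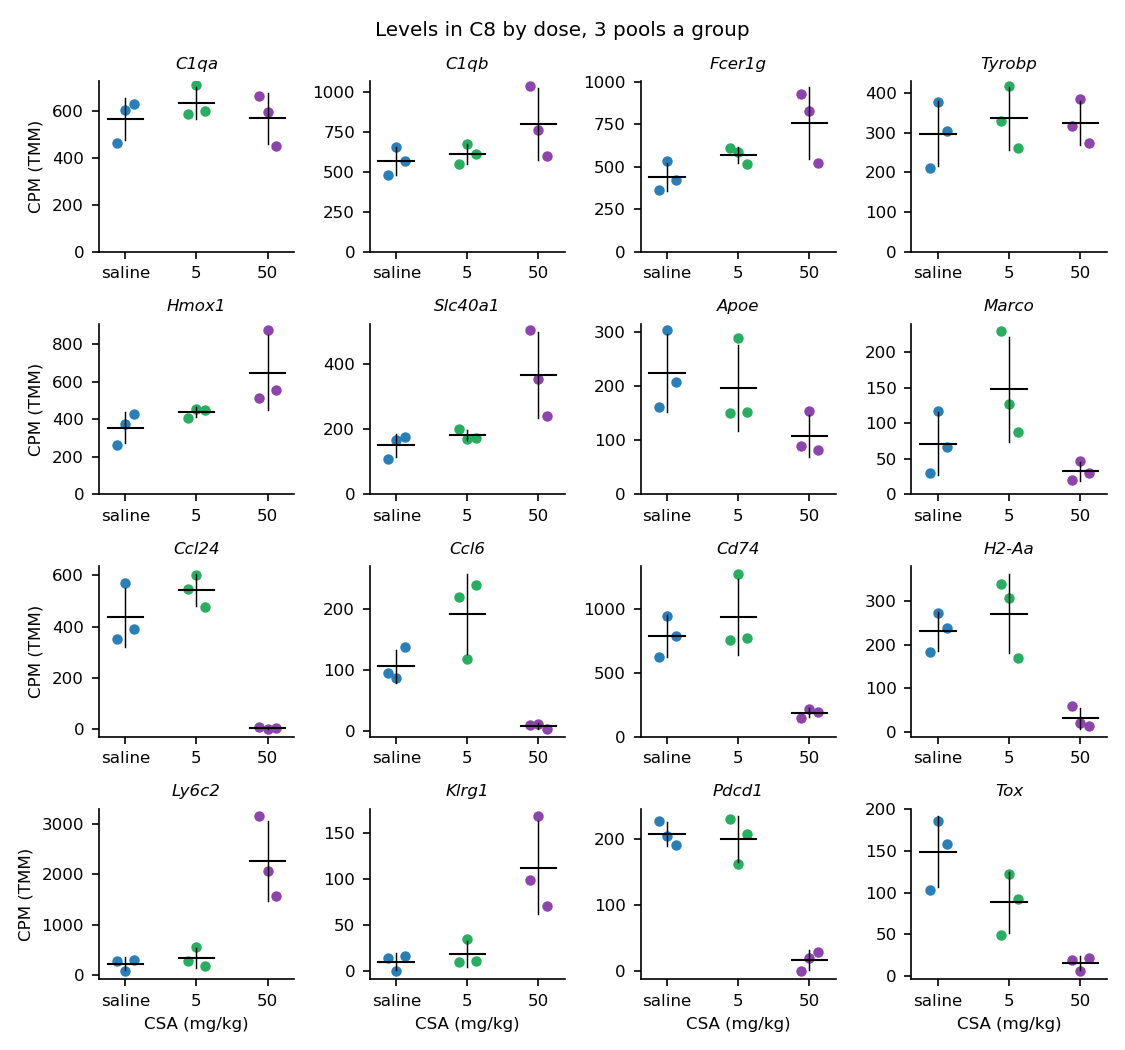
TMM-normalized CPM of 16 genes in C8 by CSA dose. Each point is a pool, the horizontal bar the group mean and the vertical line 1 SD (n = 3). C1qa stays between 448 and 711 CPM in all pools, Ccl24, Ccl6, Cd74 and H2-Aa are low only at 50 mg/kg, Hmox1 and Slc40a1 are high at 50 mg/kg, and Ly6c2 and Pdcd1 separate the 50 mg/kg pools from the rest in opposite directions.

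T cell genes of C8 changed by dose as well. Of 10 tested inhibitory and costimulatory receptors, 7 fell and none rose at CSA 50 mg/kg, where 18.1% of all genes fell. Their median log2 change was -1.56. Under library size scaling 9 fell, where 1170 of all 4064 genes did. Pdcd1 (PD-1) was at 227, 204 and 191 CPM with saline, 229, 161 and 207 CPM with CSA 5 mg/kg and 0, 20.6 and 29.6 CPM with CSA 50 mg/kg, a log2 change of -3.25. Tox, a factor of exhausted T cells, changed by -3.36, Lag3 by -3.14 and Tigit by -2.06. Tcf7, a factor of naive and follicular helper cells, fell from 344, 346 and 262 CPM to 39.5, 67.6 and 66.6 CPM (log2 change -2.29), and Hif1a, which drives glycolytic genes, changed by -1.82. Ly6c2, a surface marker of memory-like T cells, was at 285, 74.1 and 308 CPM with saline, 289, 563 and 174 CPM with CSA 5 mg/kg and 3151, 2072 and 1581 CPM with CSA 50 mg/kg. It rose by 3.24 ± 0.23 on the log2 scale (adjusted p = 3.37e-16 in edgeR), and Klrg1, a receptor of terminal effector cells, changed by 3.35.

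Effector genes went both ways, in shares near the 16.0% and 18.1% of all genes. Of 20 tested, 4 rose and 5 fell at CSA 50 mg/kg. Under library size scaling 4 rose and 7 fell, where 284 and 1170 of all 4064 genes did. The chemokine Ccl5 rose from 1310, 1390 and 1243 CPM to 2963, 4056 and 2625 CPM (log2 change 1.31) at 50 mg/kg, and it was at 787, 868 and 815 CPM with CSA 5 mg/kg (log2 change -0.66, adjusted p = 0.000368 in edgeR). The 2 doses thus lay on opposite sides of saline. Gzma, a granzyme, changed by -2.38, Il18r1, a cytokine receptor, by -2.40 and Cd226, an activating receptor, by -1.39. For Gzmb the log2 change was 0.26 (adjusted p = 0.169), and for Tbx21 and Cxcr6 it was -0.50 and 0.14, neither past the test.

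In the list of calcineurin, NFAT and TCR-induced genes 4 of 13 tested genes fell at CSA 50 mg/kg, where 18.1% of all genes fell. None rose, and the median log2 change was -0.44. Under library size scaling 6 of 13 fell, where 1170 of all 4064 genes did. Sostdc1 had 115 UMIs in the saline pools together and 0 in the 50 mg/kg pools, at least 59.5-fold lower against a floor of 3 UMIs over the group. Nfatc1 changed by -1.12, and Nrgn, which binds calmodulin, by -4.34. Lmna, which encodes lamin A and C, had 0 UMIs with saline and 92 with CSA 50 mg/kg, at least 19.7-fold higher by the same floor. It belongs to a list of lamina, annexin and S100 genes in which 12 of 14 rose and 2 fell at 50 mg/kg under each scaling. Over all genes 16.0% rose and 18.1% fell with TMM. The list's median log2 change was 1.12 with TMM, and DESeq2 called 12 rises and 1 fall. S100a6 rose from 2005, 1772 and 1759 CPM to 5383, 5008 and 5138 CPM (log2 change 1.49), while Ahnak fell by 0.69. Lgals3 had a log2 change of -0.48, a call lost under DESeq2 (adjusted p = 0.35) and without saline pool 1 or 3 or CSA 50 mg/kg pool 2 or 3 (0.060 to 0.18).

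Other falls and rises were found among genes of growth and metabolism. Replication-dependent histone genes, whose mRNAs mostly lack a poly(A) tail, took 7 of the 10 largest falls at CSA 50 mg/kg by the naming rule. Hist1h2ab went from 395, 451 and 374 CPM to 9.88, 11.8 and 7.40 CPM (log2 change -5.27) and Hist1h3e from 402, 500 and 586 CPM to 19.8, 23.5 and 33.3 CPM (-4.21). Ikzf2, the factor Helios, changed by -4.23. Of 16 tested cell cycle genes 5 fell and none rose, where 18.1% of all genes fell, and DESeq2 called none. Mki67 changed by -0.93 (adjusted p = 0.016 in edgeR), a call lost in DESeq2 (0.099) and without saline pool 3 (0.20), CSA 50 mg/kg pool 1 (0.071) or CSA 50 mg/kg pool 3 (0.097). Of the rises, Dapl1 (3.14), which DESeq2 did not call (adjusted p = 0.10), Ctla2a (2.46), Anxa1 (2.04), Capg (2.02) and S100a4 (1.81) were among the 10 largest.

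Ribosomal and respiratory genes were higher at the low dose, in C8 and in the other CD4+ T cells. In the order of dose, the ribosomal list took 16.9%, 23.7% and 22.4% of the UMIs of C8. In the other cells it took 15.2%, 23.2% and 20.9%. The oxidative phosphorylation list took 2.22%, 2.68% and 2.94% in C8 and 2.03%, 2.80% and 2.84% in the other cells. These rises are thus not particular to C8. Of 80 cytosolic ribosomal protein genes, 72 rose with the low dose (median log2 change 0.63, against -0.02 over all genes) and 77 with the high dose (0.66), with no fall. Under library size scaling it was 57 and 61. Over all genes 5.44% rose with the low and 16.0% with the high dose. Under library size scaling 117 and 284 of all 4064 genes rose. Rps29 was at 1083, 976 and 1093 CPM with saline, 3138, 2722 and 3082 CPM with CSA 5 mg/kg and 1640, 1948 and 1806 CPM with CSA 50 mg/kg. It was higher at 5 than at 50 mg/kg (log2 change of 50 against 5 mg/kg -0.71, adjusted p = 3.6e-07 in edgeR). Of 79 nuclear oxidative phosphorylation genes, 25 rose with the low and 56 with the high dose (12 and 27 under library size scaling), with no fall. Of 13 genes of the mitochondrial genome, 8 rose with the low and 3 with the high dose (3 and 0 under library size scaling, where 4 fell at 50 mg/kg). With only the cells that had a clonotype, none of 12 such genes was called at the low dose, and their median log2 change was 0.13 in place of 0.48.

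Other changes at CSA 5 mg/kg were fewer. The antiviral gene Ifi27l2a rose from 1420, 1587 and 1339 CPM to 2849, 3093 and 3273 CPM (log2 change 1.10) and Ifitm3 rose by 0.94. In cells with a clonotype alone the change of Ifitm3 was 0.46 and did not pass (adjusted p = 0.29). The macrophage list had no call in 19 genes. Wfdc17, a macrophage gene named after its values were seen, rose by 0.80. S100a8 and S100a9, abundant in neutrophils, had log2 changes of 1.77 and 1.90, but CSA 5 mg/kg pool 2 held 244 and 218 CPM where the other pools of the group held 49.8 to 97.9 CPM, and without it neither passed the test (0.97 and 0.99, adjusted p = 0.28 and 0.35 in edgeR). Among falls by the naming rule were Ccny (-1.96), Adnp (-1.67), Pxn (-1.43) and Vps53 (-1.40), for which DESeq2 gave no adjusted p. Leaving out 1 pool ended the call of Ccny for CSA 5 mg/kg pool 3 (adjusted p = 0.055), that of Vps53 for saline pools 1 and 3 and CSA 5 mg/kg pools 1 and 2 (0.077 to 0.15), and that of Pxn for each pool but CSA 5 mg/kg pool 2 and CSA 50 mg/kg pool 1 (0.052 to 0.18).

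A test of the difference then asked whether genes changed in C8 otherwise than in the other CD4+ T cells of the same pools. Its genes were filtered on the C8 sums alone, and the split into C8 and the rest was made from the same counts. At CSA 5 mg/kg no gene passed in edgeR with pool as a block, 318 genes (7.82%) had an unadjusted p under 0.05, and DESeq2 called 3. At CSA 50 mg/kg 29 of 4064 genes (0.714%) passed, 9 with a more positive and 20 with a more negative change in C8, 336 (8.27%) had an unadjusted p under 0.05, DESeq2 called 19, and without saline pool 3 the count was 18. Most dose changes of C8, among them those of Pdcd1, Tox, Ly6c2 and Klrg1, thus had no detectable difference from the other cells, where their log2 changes were -3.40, -3.39, 3.68 and 3.46.

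Cd74 had the most negative difference, -2.82 ± 0.19 (SE, adjusted p = 1.03e-16 in edgeR). While it fell in C8, it rose in the other CD4+ T cells from 59.7 ± 9.26 to 119 ± 6.89 CPM (log2 change 0.99). H2-Eb1 had a difference of -2.35 (adjusted p = 0.0054), with 4.08 ± 0.568 and 4.11 ± 2.35 CPM in the other cells, and it lost the call without saline pool 2 or 3 or CSA 50 mg/kg pool 2 or 3 (adjusted p = 0.057 to 0.37). H2-Aa and H2-Ab1 had differences of -2.07 and -1.71 that did not pass (adjusted p = 0.086 and 0.11), but both passed with no filter on low counts (0.0058 and 0.033) and H2-Aa without CSA 50 mg/kg pool 1 (-2.80, adjusted p = 0.0016).

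Fcer1g had a difference of 1.59 ± 0.25 (adjusted p = 3.27e-05 in edgeR), with a log2 change of -0.70 in the other CD4+ T cells, from 26.2 ± 0.812 to 16.1 ± 6.68 CPM, a low level that was not corrected for free RNA. DESeq2 gave a difference of 1.72 with an adjusted p of 0.11. Since C8 is named for Fcer1g and the clusters were made from these counts, its p-values are not independent of the split. Cd81, a tetraspanin, was at 80.5, 92.6 and 87.3 CPM with saline and 119, 141 and 92.5 CPM with CSA 50 mg/kg in C8, while the other cells went from 35.3 ± 11.7 to 8.06 ± 0.210 CPM, which gave a difference of 2.69 (adjusted p = 1.9e-07). Ifitm3, an antiviral membrane protein, changed by -0.87 in C8 and by -2.93 in the others (difference 2.35), where the change in C8 was lost without saline pool 3 (-0.65, adjusted p = 0.090). Marcks, an actin regulator, changed by 0.99 and -0.57 (difference 1.76), a difference lost without saline pool 1 or 2 or CSA 50 mg/kg pool 2 (adjusted p = 0.059 to 0.11). Ctsl, a lysosomal protease, had a difference of 2.90 (adjusted p = 0.0025), lost under DESeq2 (0.067) and without saline pool 2 (0.098).

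Genes of division had differences of the other sign. Of 16 cell cycle genes 5 had a more negative change in C8 and none a more positive one, against 20 and 9 of all 4064 genes. Pclaf, a replication factor, changed by -0.76 in C8 and by 0.61 in the others (difference -1.16, adjusted p = 0.001 in edgeR), and Stmn1, Ccna2, Ube2c and Hmgb2 followed with -0.90, -1.53, -0.88 and -0.44. Leaving out 1 pool ended the call of Stmn1 for saline pool 3 (adjusted p = 0.19) and that of Ccna2 for any saline or CSA 50 mg/kg pool (0.057 to 0.19). It ended those of Ube2c and Hmgb2 for 5 and 7 of the 9 pools (0.052 to 0.41 and 0.061 to 0.40), among them saline pools 1 and 3 and CSA 50 mg/kg pool 2 for both. Mki67 fell in both, with a difference of 0.45 (adjusted p = 0.79). Histone genes were low at 50 mg/kg in both but lower in C8, with differences of -2.82 for Hist1h2ab, -2.26 for Hist1h2ae and -2.14 for Hist2h2bb, the last lost without saline pool 3, CSA 5 mg/kg pool 1 or 2 or CSA 50 mg/kg pool 2 or 3 (adjusted p = 0.050 to 0.30). Gzmb had a difference of -0.64 (adjusted p = 0.0047), for it rose in the other CD4+ T cells from 565 ± 30.0 to 1240 ± 155 CPM. This call was lost without the pool as a block (0.051), without cells of a strong second hashtag (0.11) and without saline pool 3 (0.32). The make-up of the other CD4+ T cells by cluster moved with dose, C3 from 4.35% to 17.7% and C6 from 10.9% to 1.11% of CD4+ T cells between saline and CSA 50 mg/kg, and its part in these differences was not tested.

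**Figure D5:**
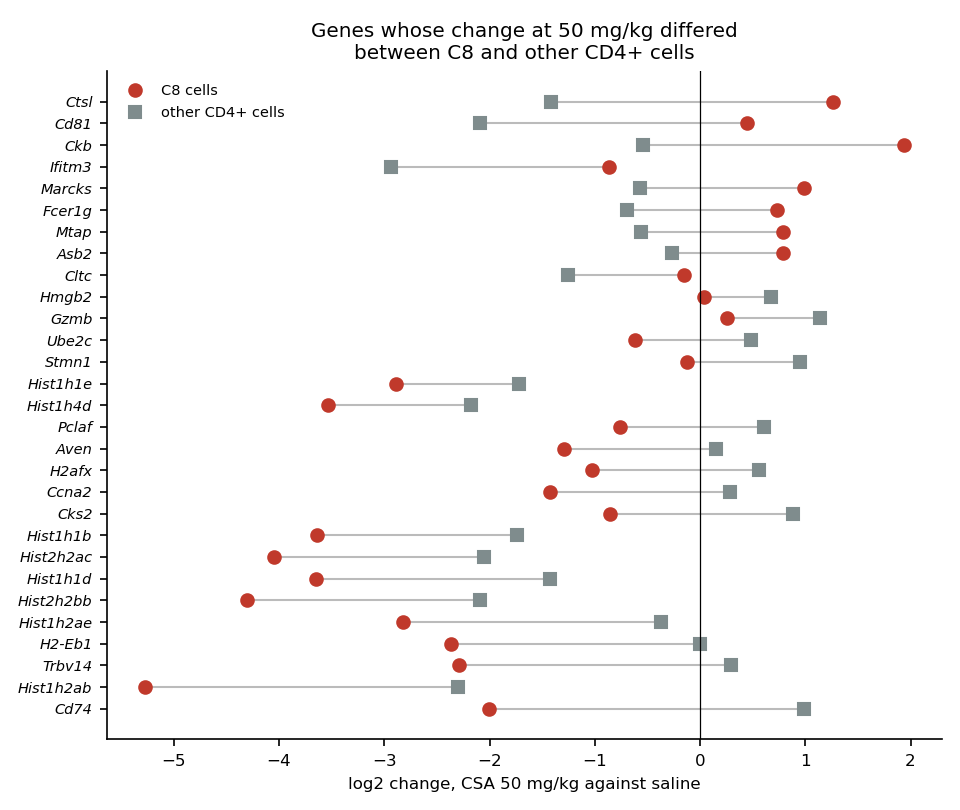
Log2 change at CSA 50 mg/kg against saline in C8 cells (red circles) and in the other CD4+ T cells (gray squares), each from its own fit, for the 29 genes whose change differed between them, ordered by the difference of the joint fit. Cd74 lies at -2.01 in C8 and at 0.99 in the others, and Fcer1g at 0.73 and -0.70.

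The CD8+ cluster chosen by its Fcer1g share had like levels by dose for some genes and unlike levels for others, given here as CPM without TMM. Ccl24 was at 391, 395 and 6.59 CPM in it (saline, CSA 5 mg/kg, CSA 50 mg/kg) and at 434, 470 and 4.68 CPM in C8. Cd74 was at 650, 646 and 129 CPM and at 781, 810 and 157 CPM, Hmox1 at 237, 270 and 555 CPM and at 354, 379 and 549 CPM, and C1qa at 419, 410 and 379 CPM and at 561, 548 and 481 CPM. Slc40a1 was less alike, at 106, 107 and 153 CPM in the CD8+ cluster and at 149, 157 and 310 CPM in C8. Mki67 was higher in the CD8+ cluster, at 290, 223 and 103 CPM against 108, 122 and 42.3 CPM in C8. Since the sorted CD4+ and CD8+ T cells came from the same spleens and capture, the values of the CD8+ cluster are not independent of C8.

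Lists of other cell types were followed across doses in C8 as shares of UMIs, with an exact trend test adjusted over 14 lists. The CD8 lineage list, which rests on Cd8b1, took 0.0208%, 0.0122% and 0.00294% in the order of dose, and the stromal and endothelial list, of which 2 of 9 genes had a UMI, Pecam1 with 105 and Stab2 with 17, took 0.00968%, 0.00610% and 0.00390% (both adjusted p = 0.00833). Both lists fell in the other CD4+ T cells too, so these falls are not particular to C8. There the CD8 lineage list took 0.0146%, 0.00909% and 0.00227%, and the stromal and endothelial list 0.00806%, 0.00466% and 0.00186%. In C8 the MHC class II list took 0.186%, 0.174% and 0.0456% (exact p = 0.0417, adjusted p = 0.146). The neutrophil, B cell, erythroid, platelet, basophil, progenitor, dendritic, natural killer, innate-like T and γδ T cell lists had adjusted p-values of 0.10 or more.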

How the data were processed

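CD4+ and CD8+ T cells of 9 spleen pools (3 per group, 2 mice each) were profiled with 5′ droplet RNA-seq, TCR and antibody tag libraries. The authors deposited raw UMI counts per gene and cell (18029 genes, none normalized), raw UMI counts of 9 hashtags and of the CD4, CD8 and CD45.1 tags, the mitochondrial fraction of UMIs, module scores, clonotypes, cluster numbers and marks of TEa cells. The submitters' processing notes name Cell Ranger, Seurat 3.0.0 and mm10; the annotation is not given in the sources used here. Hashtags were assigned and dead cells and doublets removed by the authors before deposit, and no doublet caller was run here. The deposited module scores were not used for any result. All sample columns were mapped (0 unused).

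Counts of C8 cells and of the other CD4+ T cells without TEa cells were summed per pool (at least 10 cells). Genes were tested with edgeR 4.0.16 (R 4.3.3; filterByExpr, TMM, quasi-likelihood test, Benjamini-Hochberg over all genes tested, threshold 0.05), with the 3 groups in 1 fit. The difference between C8 and the other cells was an interaction with pool as a block, over the genes that passed the filter in C8. C8 against the other cells was described without a test. Single values per pool were compared with exact permutation tests. With 3 pools against 3 such a test cannot go below 0.1, so trends over 9 pools were used, whose smallest p is 0.00119. Alternatives were DESeq2 1.42.0, no filter, library size scaling, subsets of cells, each pool left out and the hashtag number as a replicate block. The scripts were tested on simulated data. Pools hold separate mice, so that p-values measure the spread between pools within a capture.

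Named genes were those of 29 lists (up to 4 a list), the 12 highest and 8 lowest in C8, the 10 largest rises and falls per dose and the 5 largest differences each way, all with at least 50 CPM, without TCR and immunoglobulin segments, and the genes the study names for its CD4+ clusters. The members and the lists were chosen with earlier results of these data known.

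Same-numbered pools of different groups did not deviate together: over 3200 genes, r of the deviations from the group means was -0.0389 to 0.0294 in 9 same-numbered pairs and -0.0452 to 0.0534 in 18 others.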

Additional observations from a re-analysis of the deposited data

Results flagged for a closer look

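At CSA 50 mg/kg, 29 genes changed differently in C8 and in the other CD4+ T cells by the interaction test. The 10 named genes are given here with their range over the 16 alternatives and the reported fit. A more positive change in C8 was found for Cd81 (2.69, range 2.41 to 2.89), Ifitm3 (2.35, 2.15 to 2.54), Marcks (1.76, 1.61 to 1.98), Fcer1g (1.59, 1.16 to 1.99) and Asb2 (1.32, 1.06 to 1.45), on the log2 scale. A more negative change was found for Cd74 (-2.82, -2.95 to -2.62), Hist1h2ab (-2.82, -3.18 to -2.59), H2-Eb1 (-2.35, -2.69 to -1.83), Hist1h2ae (-2.26, -2.44 to -2.01) and Hist2h2bb (-2.14, -3.22 to -1.86). Cd81, Ifitm3, Cd74, Hist1h2ab and Hist1h2ae passed the test under every alternative run. Fcer1g missed it with DESeq2, and as the marker that names C8 it is not independent of the split. Marcks missed it in 3 settings, Asb2 in 5 (among them without saline pool 3, adjusted p = 0.10, and without CSA 50 mg/kg pool 2, 0.30), H2-Eb1 in 6 and Hist2h2bb in 8.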

How the results depend on the processing

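Among the named genes and the further genes given with values, none that passed its test changed sign under any alternative run. The signs of the other called genes were not followed. The balance of the calls did turn with library size scaling, from 221 rises and 100 falls to 117 and 342 at 5 mg/kg, and in the mitochondrial genome list from 3 rises to 4 falls at 50 mg/kg. With DESeq2 the counts of genes changed in C8 were 199 (5 mg/kg against saline), 706 (50 mg/kg against saline) and 204 (50 against 5 mg/kg), with no adjusted p for 2521 of the 4064 genes in the first, and those of genes that changed differently from the other cells were 3 at 5 mg/kg and 19 at 50 mg/kg. Without a filter on low counts the last 2 counts were 15 and 47. With only cells that had a clonotype, 229 genes differed between the doses and 1 list of other cell types trended with dose. At 4-fold in place of 2-fold, 160 in place of 333 genes set C8 apart.

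With 1 pool left out, the counts were 203 to 339, 980 to 1441 and 272 to 422 for the 3 dose comparisons, and 0 to 11 and 18 to 30 for the differences at 5 and 50 mg/kg. The difference in shared clonotypes was -4.43 to -2.78 points and that in strong second hashtags 2.86 to 5.03 points, against 4.45 with all pools and 10.1 with a second hashtag of 0.25 of the strongest. The hashtag number as a replicate block gave 324, 1365 and 418 genes, and without the pool as a block the differences were 0 and 25 genes and the count of genes that set C8 apart was 331. The numbers do not pair the pools. Results for single genes kept their side of the threshold in 7722 cases, lost it in 299 and gained it in 75, where an adjusted p that DESeq2 did not give is left out. Each treatment was 1 capture, and C8 pool 1 of CSA 50 mg/kg held 18 cells, which limits the precision of its low genes. The cause of these shifts was not tested.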
